A study of Mus musculus with 4 samples.

Results

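The bone morphogenetic protein (Bmp) pathway and the Id genes it acts on were examined in mouse mammary tumor cells with and without an edited S100a4 gene. The members were 10 genes taken by name from a table of 21090 genes: the protease gene Bmp1, the ligand gene Bmp4, the receptor genes Bmpr1a and Bmpr2, the signal transducers Smad1 and Smad5, the inhibitory Smad6, and Id1, Id2 and Id3. All 10 were in the table and all 10 passed the filter on low values, as did 10871 genes in all. RNA sequencing had been run on 4 cell lines with 1 library each. By the study's account, the lines trace to a primary mammary tumor with lung metastasis. The mouse carried an activated Pik3ca allele and a dominant-negative Trp53 allele, both switched on by Cre from the MMTV promoter. On that account controls and knockouts share both alleles. Parental cells and a vector control line served as controls (n = 2), and lines edited with Cas9 and a guide RNA in exon 3 or in exon 2 of S100a4 as knockouts (n = 2). The titles of 3 samples give 307 as the cell and that of the exon 2 edit gives 308, so any difference between these cells and the guide used cannot be told apart. The edited lines were made with a puromycin-selected lentivirus, and the sources used here do not give whether a line was a clone or a pool, or whether the parental line went through selection. Nothing in the labels describes separate cultures, so the p-values measure the spread between these 4 libraries.

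Bmp ligands bind a complex of type I and type II receptors at the cell surface, in which the type II receptor phosphorylates the type I receptor. The type I receptor then phosphorylates Smad1, Smad5 or Smad9, which join Smad4 and move to the nucleus, where the Id genes are among the best known targets. Id proteins have a helix-loop-helix domain and no DNA-binding region, and they hold E proteins in pairs that cannot bind DNA. In the mammary gland, Id genes are known from work on proliferation and differentiation of the epithelium and on spread of breast tumors.

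Levels are given as deposited by the authors, in RPKM, which divides the reads of a gene by its length in kilobases and by the read total of its library. Whole reads could be recovered from the values, and reads in genes numbered between 14608045 and 20401731 per library. S100a4, the edited gene, was at 3576 RPKM in parental and 4741 in vector control cells. It was at 1136 for the exon 3 and 1105 for the exon 2 edit, a log2 change of -1.88 (SE 0.311, limma adjusted p = 0.0731). RNA level does not measure the edit itself. The study reports truncating mutations in nearly all transcripts of the gene in the edited lines, and loss of the protein by Western blot. Of the epithelial markers, 2 of 10 reached a mean of 1 RPKM and the sum over the list ran from 34.7 to 129.9 in the controls and from 74.9 to 107.3 in the knockouts. Of the mesenchymal markers, 11 of 12 did so, with sums from 3320 to 6040 in the controls and from 3038 to 3189 in the knockouts. In these cells, labelled as a mammary tumor line, 8 of 10 epithelial markers thus had a mean over the libraries under 1 RPKM. The other 2 reached it, so the list was not silent. Leukocyte markers reached it in 2 of 9 genes, with sums from 7.03 to 9.09 in the controls and from 14.8 to 28.8 in the knockouts and with Emr1 and Cd3e at 0, and endothelial markers in 0 of 6, with Emcn at 0 and sums from 0.214 to 0.458 in the controls and from 0.28 to 0.368 in the knockouts. Across 10769 tested genes the log2 change also moved with base composition, from a median of -0.68 in the eighth of genes with the lowest coding GC content to 0.22 in the eighth with the highest. The part of cell makeup and base composition in the results below was not tested, beyond the corrected values given beside them.

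The genes lie on 8 chromosomes of GRCm38, with Bmp1, Bmp4 and Bmpr1a together on chromosome 14 (chr14:70474558-70520234, chr14:46383520-46390669 and chr14:34410734-34503341, all on the minus strand). Bmpr2 lies at chr1:59763400-59879014 on the plus strand. Smad5 lies at chr13:56703010-56742377 on the plus strand, and Smad1 at chr8:79338395-79399518 and Smad6 at chr9:63953076-64022059 on the minus strand. Id1 (chr2:152736251-152737410) and Id3 (chr4:136143497-136145755) are on the plus strand and Id2 (chr12:25093799-25097140) is on the minus strand. No exon of another gene in GENCODE M21 overlapped the coding exons of any member, and no run of 75 bases was shared between the coding sequences of related genes such as Smad1 and Smad5 or Id1 and Id3.

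Promoter windows from RefSeq (GRCm38.p6, 250 bases before and 50 after a transcript start) were found for 8 of the 10 genes, the others being Bmp1 and Id1. Both strands were searched for GGCGCC, a GC-rich element that Smad proteins can bind and that reads the same on both strands, and for CAGAC, the Smad binding element. In at least 1 window, GGCGCC was present for Bmpr1a, Bmpr2, Smad5 and Id2 (4 of 8 genes), against 13.4% of all 27025 genes counted in the same way and 11.9% of all 32851 single windows. CAGAC was present for Id3 and Smad5 (2 of 8), against 53.2% of all genes and 49.6% of single windows. Smad5 has 3 windows and the other members 1 each. The member windows held 59.3% to 79.3% GC, and GGCGCC is made of G and C only. No share among windows of like GC content was computed, so the counts do not show an excess of the motif. The GGCGCC matches of Bmpr1a, Bmpr2, Smad5 and Id2 and the CAGAC matches of Id3 are shown with their flanks. They run 5′ to 3′ on the strand of the gene, with the matched letters in capitals.
Bmpr1a (chr14:34502727-34502756, minus strand): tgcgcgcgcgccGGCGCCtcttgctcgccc
Bmpr2 (chr1:59764162-59764191, plus strand): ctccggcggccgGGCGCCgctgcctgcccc
Smad5 (chr13:56703021-56703050, plus strand): ccccggcgagcgGGCGCCgagcgcttgtcc
Id2 (chr12:25096306-25096335, minus strand): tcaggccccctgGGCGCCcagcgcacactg
Id3, site A (chr4:136143643-136143671, plus strand): tgtcctcggcgtCAGACcagcctaaggaa
Id3, site B (chr4:136143742-136143770, plus strand): ggacccttggcgGTCTGttttgaataagg
The Bmpr1a site began 198 bases before a RefSeq start, the Bmpr2 site 105 bases, the Smad5 site 19 bases and the Id2 site 231 bases. The same Smad5 site began 23 bases after another RefSeq start of that gene. The Id3 sites began 167 and 68 bases before the start, the second with the motif on the other strand. In the longer GENCODE models the sites of Bmpr2, Smad5 and Id3 fall in exons outside the coding sequence, and those of Bmpr1a and Id2 in introns. The matches describe letters in these windows and were not tested for binding.

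The question put to the 10 genes was whether the edited lines differed from the controls. Transcripts of both receptors and of Smad5 were lower in both knockouts. Bmpr2 averaged 12.7 ± 4.26 RPKM in the controls and 3.92 ± 0.417 in the knockouts (SD, n = 2 each), Smad5 25.1 ± 1.58 and 10.1 ± 2.03, and Bmpr1a 24.2 ± 5.20 and 11.1 ± 4.56. The Id genes went apart, with Id3 lower and Id1 higher in both knockouts than in both controls. In bulk RNA, fewer cells with a transcript and less of it per cell cannot be told apart. In limma on log2(RPKM + 1), with p-values adjusted over all tested genes, 0 of 10 members passed an adjusted p of 0.05, which 0.0184% of all tested genes did, and voom on the recovered reads passed 0 genes of the table. At an unadjusted limma p under 0.05, 4 of 10 members were lower (Bmpr1a, Bmpr2, Smad5 and Id3) against 13.8% of all tested genes, and 1 of 10 was higher (Id1) against 5.32%. Both knockouts were below both controls for 5 of 10 members, those 4 and Smad1, against 31.2% of all tested genes, and above them for 1 of 10, Id1, against 21.9%. Only Bmpr2 was at least 2-fold lower in all 4 pairs of a knockout and a control on the log2(RPKM + 1) scale, as were 1.73% of all tested genes. Smad5 narrowly missed this, at -0.999 for the exon 2 edit minus the parental line. In RPKM without the added 1, Smad5 was also more than 2-fold lower in all 4 pairs. The share of all tested genes on that scale was not computed. The median log2 change was -0.71 over the members and -0.08 over all tested genes. With 2 libraries against 2, an exact permutation test cannot give a two-sided p under 0.3333.

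**Figure D1:**
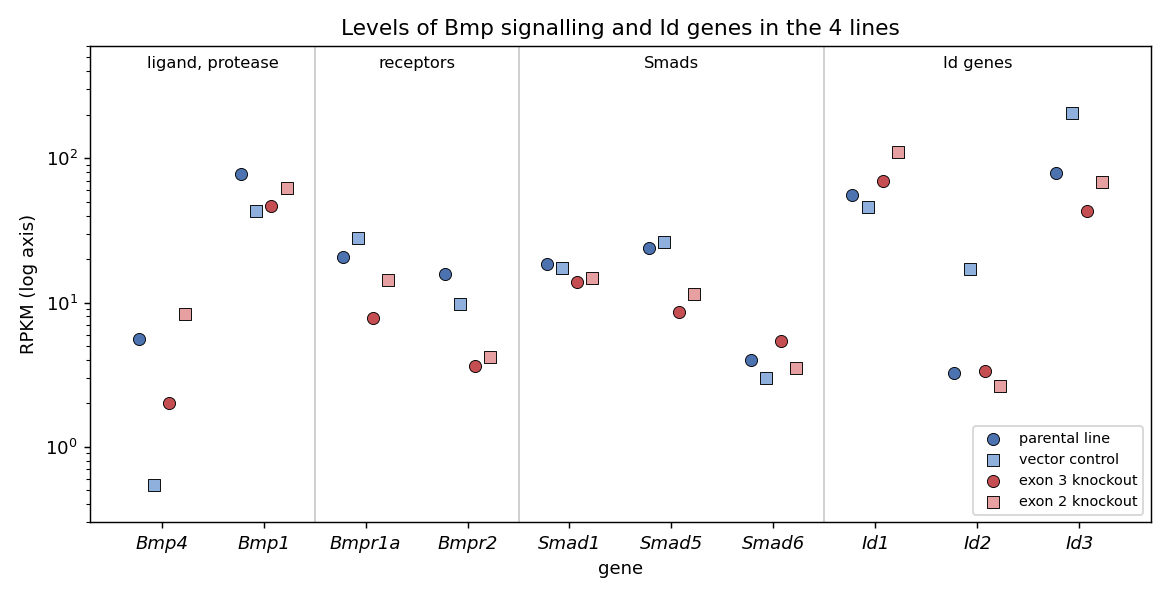
Levels of the 10 genes in RPKM on a log axis, with 1 point for each of the 4 libraries, the controls in blue and the knockouts in red. The knockouts lie below both controls for Bmpr1a, Bmpr2, Smad1, Smad5 and Id3 and above both for Id1, and the points of the other 4 genes are interleaved.

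The control lines themselves were unlike each other for some members. Bmp4, Id2 and Id3 (3 of 10) were at least 2-fold apart between parental and vector control cells, which 8.53% of all tested genes were. Between the knockouts only Bmp4 was (1 of 10), against 4.99% of all tested genes. For Bmp1, Bmp4, Smad6, Id2 and Id3 the controls differed from each other by more than the groups did. Leaving out 1 library leaves a group of 1, whose own spread a fit cannot measure. The log2 changes of such fits are given below without p-values.

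**Figure D2:**
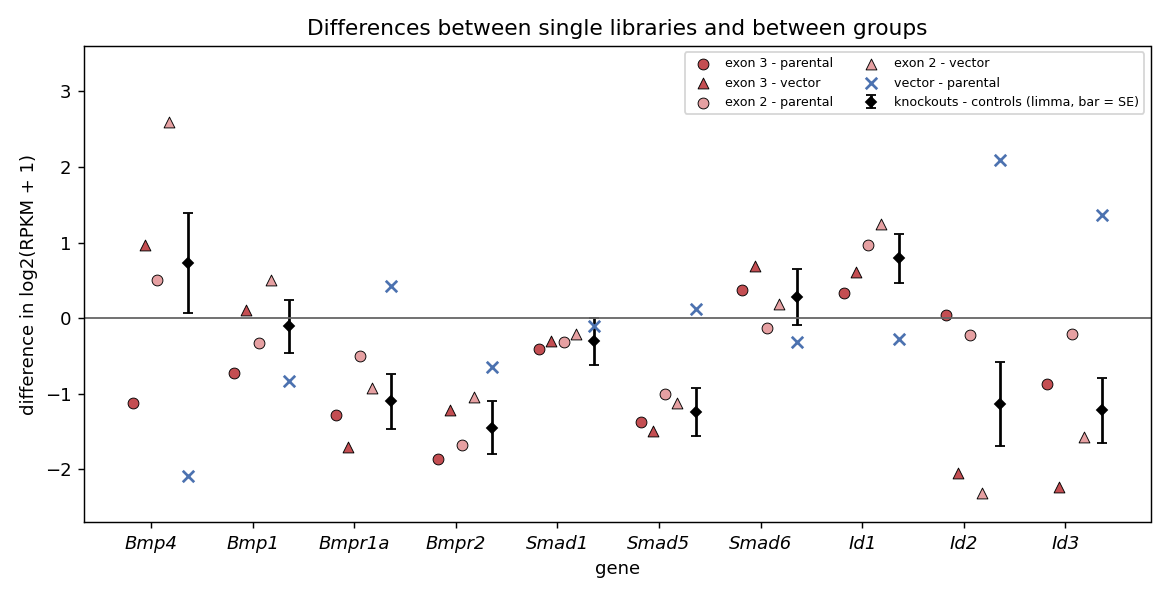
Differences in log2(RPKM + 1) for each gene, with the 4 single pairs of a knockout and a control in red, the vector control minus the parental line as blue crosses, and the difference of the group means with its SE from limma in black. All 4 pairs lie below 0 for Bmpr1a, Bmpr2, Smad1, Smad5 and Id3 and above 0 for Id1, the pairs of Id2 run from -2.31 to 0.04, and the control difference reaches 2.09 for Id2 and -2.09 for Bmp4.

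Among the ligands and their processing, neither member differed between the groups beyond the spread of the libraries. Bmp1 encodes a metalloprotease that trims procollagens and cleaves the Bmp antagonist chordin. It was at 78.1 RPKM in parental and 43.4 in vector control cells, against 46.9 for the exon 3 and 62.0 for the exon 2 edit. Both knockouts lay between the controls, and the log2 change was -0.11 (SE 0.349, limma adjusted p = 0.886). Bmp4 encodes a secreted ligand of the pathway. Its RPKM was 5.58 in parental and 0.546 in vector control cells, against 2.01 for the exon 3 and 8.31 for the exon 2 edit. The exon 2 knockout and the parental line were high and the vector control was low, so the groups overlapped. The vector control value rested on 17 reads (exact Poisson 95% interval 0.318 to 0.873 RPKM, counting error only) against 214 in the parental line, a 10.2-fold difference between the controls, and the knockouts were 4.12-fold apart. The log2 change was 0.73 (SE 0.658, limma adjusted p = 0.558). It became 1.78 without the parental line, -0.31 without the vector control and -0.08 without the exon 2 knockout. The other ligands of the family were low or absent: 12 of 13 did not pass the filter and 5 were listed at 0, Bmp7 among them. Bmp3, the ligand that passed, was at 2.38 RPKM in parental and 0.266 in vector control cells, against 0.662 for the exon 3 and 4.48 for the exon 2 edit, with the same order of libraries as Bmp4 (log2 change 0.54, SE 0.599, limma adjusted p = 0.634).

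Both receptor genes were lower in the knockouts, and as deposited Bmpr2 had the largest log2 change of the 10 members, whereas that of Id3 was larger after quantile normalization (-1.32 against -1.17) and those of Id3, Id2 and Smad5 were larger after correction for GC content and length. Bmpr2, the type II receptor that is specific to Bmp ligands, was at 15.8 RPKM in parental and 9.73 in vector control cells, against 3.62 for the exon 3 and 4.21 for the exon 2 edit. Both knockouts were well below both controls, and the mean was 3.25-fold lower. The values rested on 265 to 1534 reads. The log2 change was -1.45 (SE 0.354, limma unadjusted p = 0.00168, adjusted p = 0.105). With all libraries kept, the limma adjusted p ran from 0.0299 with a robust prior to 0.351 after correction for GC content and length. The log2 change was -0.84 after that correction, -1.77 without the vector control and -1.36 without the exon 3 knockout. Bmpr1a encodes the type I receptor also known as Alk3. Its RPKM was 20.5 in parental and 27.9 in vector control cells, against 7.83 for the exon 3 and 14.3 for the exon 2 edit. The exon 3 knockout was the lowest of the 4 and the groups did not overlap. The log2 change was -1.10 (SE 0.36, limma unadjusted p = 0.0104, adjusted p = 0.164). With all libraries kept, the limma adjusted p ran from 0.0779 with a robust prior to 0.458 after correction for GC content and length. The log2 change was -1.315 without the parental line and -0.71 without the exon 3 knockout.

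Other receptors of these classes had smaller differences, and none passed the test. Acvr1, the type I receptor also known as Alk2, was at 35.4 and 32.0 RPKM in parental and vector control cells and at 25.3 and 18.6 in the exon 3 and exon 2 edits (log2 change -0.61, SE 0.312, limma adjusted p = 0.309). The type II activin receptors that Bmp ligands can also use were lower than Bmpr2 in the controls. Acvr2a was at 5.13, 4.00, 2.97 and 3.92 RPKM in the same order (log2 change -0.33, limma adjusted p = 0.631), and its change was 0.01 after quantile normalization and 0.30 after correction for GC content and length. Acvr2b was at 0.517, 1.25, 1.24 and 2.51 RPKM (log2 change 0.60, limma adjusted p = 0.441). Bmpr1b, the close relative of Bmpr1a, was at or below 0.209 RPKM in every library and was not tested. In the knockouts the level of Bmpr2 per kilobase was thus close to that of Acvr2a, at 3.62 against 2.97 RPKM for the exon 3 edit and 4.21 against 3.92 for the exon 2 edit.

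Smad1 and Smad5 encode closely related transducers of the Bmp signal. The log2 change was the larger for Smad5, and the difference between the pair was not tested. Smad5 was at 24.0 RPKM in parental and 26.3 in vector control cells, against 8.65 for the exon 3 and 11.5 for the exon 2 edit. The controls were close to each other and both knockouts were far below them, with a mean at 40.1% of the control mean. The log2 change was -1.25 (SE 0.317, limma unadjusted p = 0.00223, adjusted p = 0.116). With all libraries kept, the limma adjusted p ran from 0.0396 with a robust prior to 0.328 without a filter on low values. The log2 change was -1.06 without the exon 3 knockout and -1.44 without the exon 2 knockout. Smad1 was at 18.5 RPKM in parental and 17.2 in vector control cells, against 13.8 for the exon 3 and 14.7 for the exon 2 edit. The groups did not overlap, but the log2 change was small (-0.31, SE 0.308, limma adjusted p = 0.598). The ratio of Smad1 to Smad5, both per kilobase, was 0.771 in parental and 0.656 in vector control cells, and 1.59 and 1.28 in the exon 3 and exon 2 edits. As deposited, Smad5 was the more abundant of the pair in both controls and Smad1 in both knockouts. Their coding GC content differs (55.6% for Smad1 and 48.2% for Smad5), and after correction for GC content and length the log2 changes were closer, at -0.44 for Smad1 and -0.93 for Smad5. Smad9, the other member of the class, was at or below 0.601 RPKM in every library. Smad6, an inhibitory Smad that blocks the receptors and is itself a target of the pathway, was at 3.97 RPKM in parental and 3.0 in vector control cells, against 5.45 for the exon 3 and 3.53 for the exon 2 edit. The groups overlapped and the log2 change was 0.28 (SE 0.366, limma adjusted p = 0.698).

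The Id genes, early targets of the pathway, did not share an order of the libraries. Id1 was at 55.4 RPKM in parental and 45.6 in vector control cells, against 69.8 for the exon 3 and 109.8 for the exon 2 edit. Both knockouts were above both controls, the exon 2 line most, and the log2 change was 0.79 (SE 0.324, limma unadjusted p = 0.0327, adjusted p = 0.226). It was 0.47 without the exon 2 knockout and 1.11 without the exon 3 knockout. Id3 was at 79.3 RPKM in parental and 205.8 in vector control cells, against 43.0 for the exon 3 and 68.5 for the exon 2 edit. Both knockouts were below both controls, but the vector control stood 2.59-fold above the parental line, which was near the exon 2 knockout. The log2 change was -1.22 (SE 0.429, limma unadjusted p = 0.0155, adjusted p = 0.181). It became -1.90 without the parental line and -0.54 without the vector control. Id2 was at 3.25 RPKM in parental and 17.1 in vector control cells, against 3.37 for the exon 3 and 2.64 for the exon 2 edit. Only the vector control was high, 5.25-fold above the parental line, and the parental line lay between the knockouts. These values rested on 24 to 175 reads, and the exact Poisson 95% interval of the parental line (2.33 to 4.41 RPKM) lay within that of the exon 3 knockout (2.31 to 4.76 RPKM). The log2 change was -1.13 (SE 0.555, limma adjusted p = 0.291). It became -2.18 without the parental line and -0.09 without the vector control.

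Ratios within a library do not depend on scaling between libraries. Id1 stood at 0.699 times Id3 in parental and 0.221 times in vector control cells, but at 1.63 times with the exon 3 guide and 1.60 times with the exon 2 guide. The ratio was thus almost equal in the knockouts although both genes were higher in the exon 2 line, and it differed widely between the controls. Of the summed RPKM of Id1, Id2 and Id3, Id1 made up 40.2% in parental and 17.0% in vector control cells, against 60.1% for the exon 3 and 60.7% for the exon 2 edit. Id2 made up at most 6.35% in any library. The sum itself was 138 and 268 RPKM in parental and vector control cells and 116 and 181 RPKM in the exon 3 and exon 2 edits, and these ranges overlapped.

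**Figure D3:**
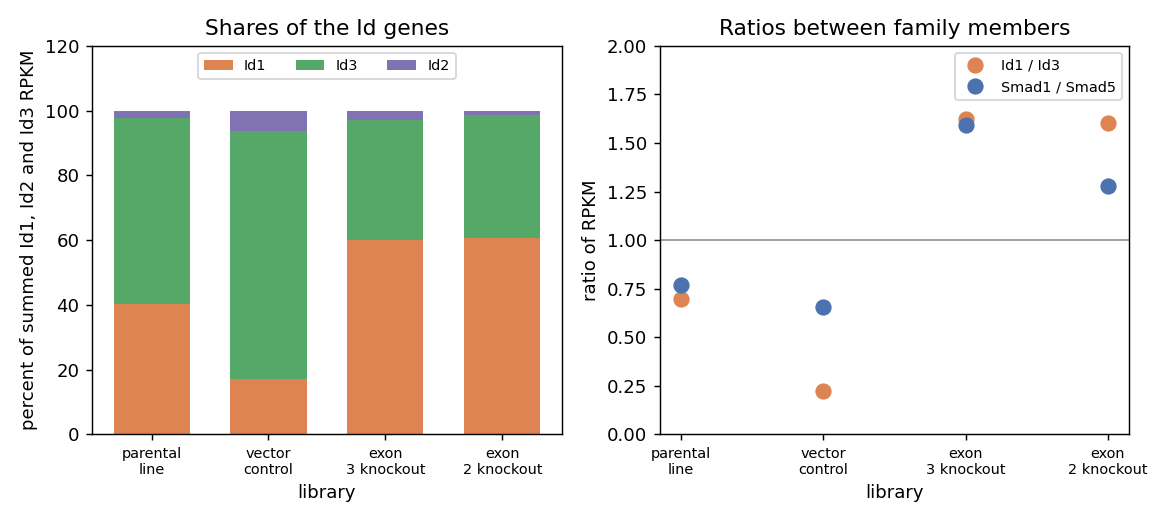
Percent of the summed RPKM of Id1, Id2 and Id3 taken by each gene, as stacked bars for the 4 libraries, and the ratios of RPKM of Id1 to Id3 and of Smad1 to Smad5 as points, with a line at a ratio of 1. Id1 makes up 60.1% and 60.7% in the knockouts and 40.2% and 17.0% in the controls, and both ratios are above 1 in the knockouts and below 1 in the controls.

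Base composition ran alongside several of these changes. The coding sequences of Bmpr1a (43.9% GC), Bmpr2 (46.9%) and Smad5 (48.2%) were below the median of the tested genes (53.1%), and those of Id1 (62.9%) and Smad6 (68.0%) above it. Across genes, which are not independent replicates, the log2 change had a Pearson r of 0.459 with coding GC content and of -0.281 with log2 coding length. After each library was corrected for both, the log2 change of Bmpr1a was -0.49 (limma unadjusted p = 0.101) and that of Id1 0.37 (unadjusted p = 0.313), so neither remained under 0.05. Bmpr2 was then at -0.84 (limma unadjusted p = 0.0308) and Smad5 at -0.93 (unadjusted p = 0.00594). Id3, whose coding GC content is high, moved the other way to -1.70 (limma unadjusted p = 0.00768) and Id2 to -1.41 (unadjusted p = 0.0371). The median over the members was -0.46 after the correction and that over all tested genes 0.01.

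**Figure D4:**
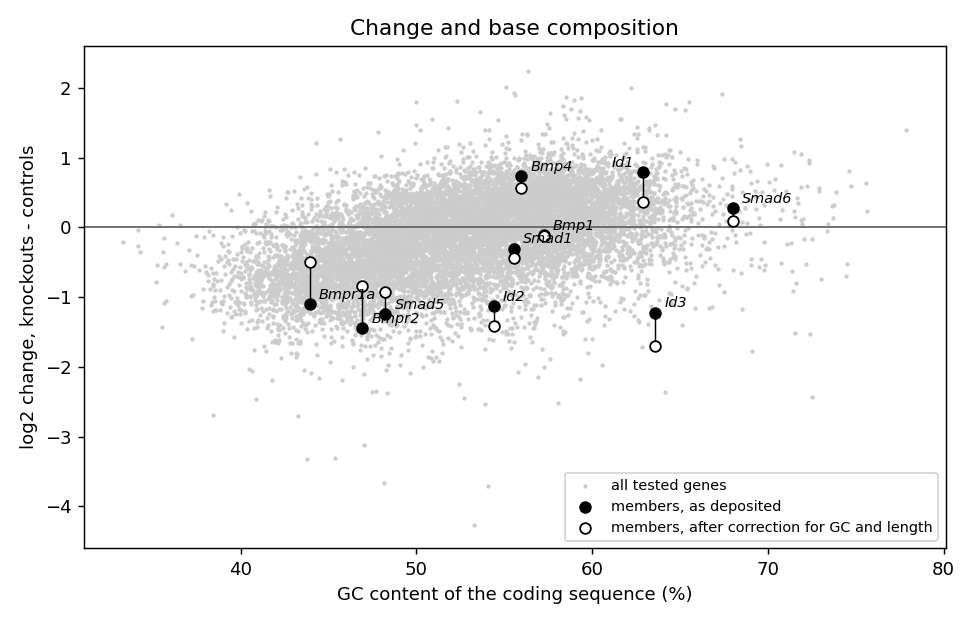
Log2 change between knockouts and controls against coding GC content in percent, with all tested genes in grey and each member before (filled) and after (open) correction for GC content and length. Bmpr1a and Bmpr2 lie among GC-poor genes and move toward 0, from -1.10 to -0.49 and from -1.45 to -0.84, whereas Id3 moves from -1.22 to -1.70.

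Other genes of the pathway came from a list of 72, of which 38 passed the filter. In limma and in voom 0 of these 38 passed an adjusted p of 0.05, and in limma 6 were lower and 1 higher at an unadjusted p under 0.05. These are 15.8% and 2.63% of the 38, beside 13.8% and 5.32% of all tested genes. Both knockouts lay below both controls for 14 (36.8%, beside 31.2% of all tested genes) and above for 8 (21.1%, beside 21.9%), and the median log2 change was -0.15. These shares were near those of all tested genes. By role, the antagonists and modulators had 2 lower and 1 higher of 9 tested at that unadjusted p, the regulators of Smad proteins 3 lower of 10, and the E proteins 1 lower of 3. None passed it among 8 receptors and co-receptors, 5 targets, 2 enhancers of procollagen processing and 1 ligand.

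Grem1, which encodes the secreted Bmp antagonist gremlin, had the largest log2 change of the 38 tested genes. It was at 3.06 RPKM in parental and 3.87 in vector control cells, against 0.295 for the exon 3 and 0.123 for the exon 2 edit. The knockouts held 5 and 2 reads against 69 and 71 in the controls. The log2 change was -1.88 (SE 0.384, limma adjusted p = 0.0957). With all libraries kept, the limma adjusted p ran from 0.0143 with a robust prior to 0.328 without a filter on low values. The log2 change was -2.01 without the parental line and -1.75 without the vector control. Of the ligand genes too low to be tested, 2 were picked after their values were seen. Bmp2 held 21 and 12 reads in the controls and 0 and 1 in the knockouts, and Gdf7 89 and 44 against 17 and 15. Bmp5, Bmp6 and Bmp8a had higher mean RPKM in the knockouts, but their groups overlapped. Bmp5 held 0 and 0 reads in the controls and 1 and 0 in the exon 3 and exon 2 edits. In the same order, Bmp6 held 21 and 21 against 17 and 31, and Bmp8a 5 and 2 against 1 and 8. Skil, a repressor of Smad-driven transcription, was at 11.7, 18.8, 5.31 and 6.56 RPKM in parental, vector control, exon 3 and exon 2 cells (log2 change -1.20, limma adjusted p = 0.138). Its log2 change was -1.52 without the parental line, -0.88 without the vector control and -0.71 after correction for GC content and length. Tob1, which restrains Bmp signals through Smad proteins, was at 36.8, 40.5, 16.9 and 18.3 RPKM in that order (log2 change -1.09, limma adjusted p = 0.130). Grem1, Skil and Tob1 all had both knockouts below both controls. The remaining genes under an unadjusted p of 0.05, named after their values were seen, were Twsg1 (log2 change -0.81), Smurf2 (-0.80) and Tcf12 (-0.80), which were lower, and Nbl1 (0.75), which was higher. After correction for GC content and length, Twsg1 was at -1.06 (limma unadjusted p = 0.0135), while Smurf2 (-0.17, unadjusted p = 0.537), Tcf12 (-0.41, unadjusted p = 0.145) and Nbl1 (0.34, unadjusted p = 0.290) were no longer under 0.05.

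**Figure D5:**
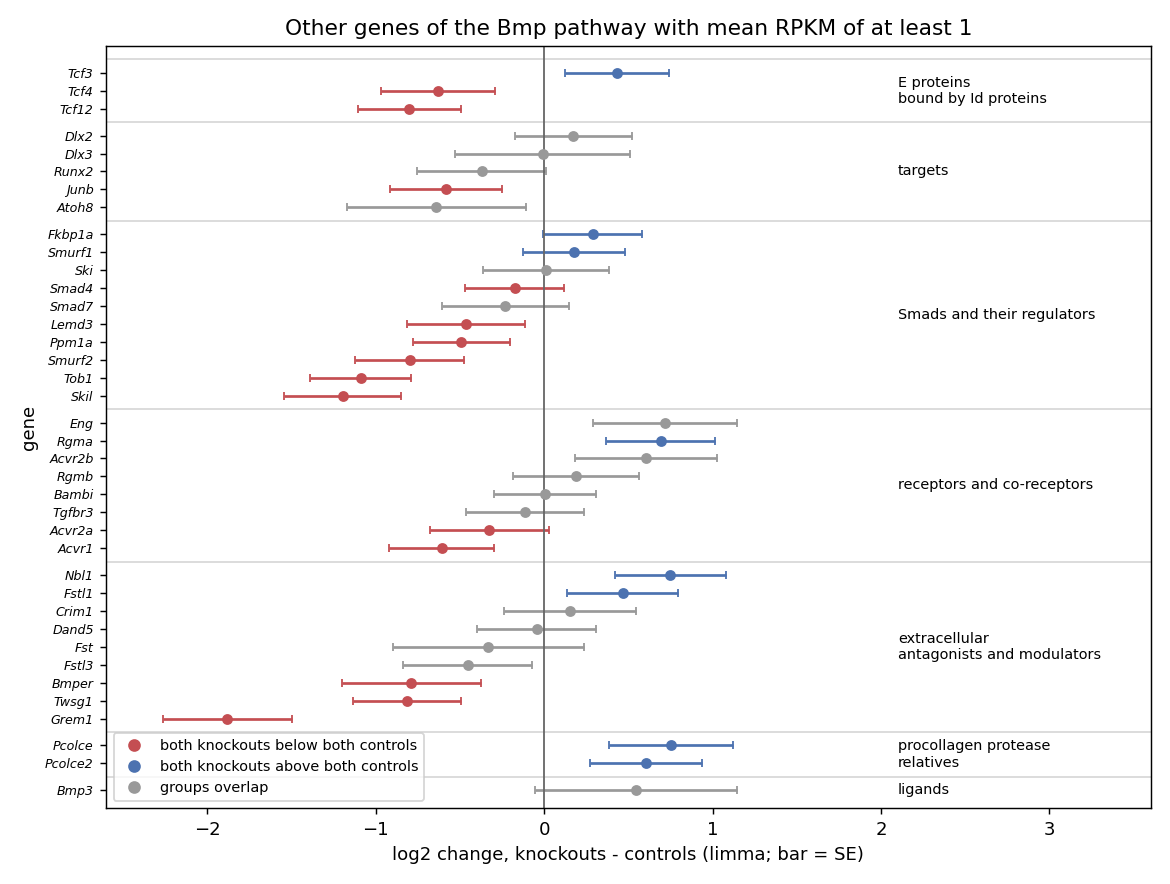
Log2 change between knockouts and controls with its SE from limma for the 38 tested genes of the pathway that are not members, grouped by role and colored by whether both knockouts lay below both controls (red), above them (blue) or neither (grey). Grem1 (-1.88) lies lowest, followed by Skil (-1.20) and Tob1 (-1.09), and Pcolce (0.75) and Nbl1 (0.75) lie highest.

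None of the most abundant genes of each role passed the test. Pcolce, an enhancer of procollagen processing by Bmp1, was at 1020 and 512 RPKM in parental and vector control cells. The exon 3 and exon 2 edits were at 1062 and 1402 RPKM. Its log2 change was 0.75 (limma adjusted p = 0.289), and it was 1.25 without the parental line but 0.26 without the vector control. Pcolce2 was at 17.6, 10.9, 22.2 and 21.1 RPKM in that order (log2 change 0.60, limma adjusted p = 0.344). Fkbp1a, which keeps type I receptors silent, was at 147 to 208 RPKM and Ppm1a, a phosphatase, at 54.2 to 81.0 RPKM over the 4 libraries. Of the extracellular modulators, Fstl1 was at 31.6 to 59.3 RPKM and Crim1 at 19.2 to 39.4 RPKM. The pseudoreceptor gene Bambi was at 40.4, 36.2, 34.7 and 42.3 RPKM, with a log2 change of 0.00. The E protein genes, whose products Id proteins bind, were all abundant, with Tcf3 at 67.2 and 51.5 RPKM in the controls and 70.2 and 90.3 in the knockouts (log2 change 0.43, limma adjusted p = 0.457). Tcf12 was at 65.0 and 54.7 RPKM in the controls and 29.7 and 38.3 in the knockouts (limma adjusted p = 0.203). Of the targets, Junb was at 54.4, 92.8, 48.7 and 45.4 RPKM in parental, vector control, exon 3 and exon 2 cells, and Runx2 at 11.9, 5.63, 5.63 and 6.67 RPKM.

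For Id1, Id3 and Bmp4, the genes of most similar pattern were sought by the Euclidean distance of centred log2(RPKM + 1) values over the 4 libraries. Nearest to Id1 were Taf8 (distance 0.0912), Abhd14a (0.104) and Ctsa (0.118). Ctsa, the lysosomal protease cathepsin A, was at 214 and 176 RPKM in parental and vector control cells and at 293 and 415 in the exon 3 and exon 2 edits. Nearest to Id3 were Herc6 (0.196), Samd9l (0.202) and Irgm1 (0.205), the last at 79.3, 225, 49.9 and 66.3 RPKM in that order. Nearest to Bmp4, at larger distances, were Masp1 (0.364), Rgcc (0.371) and Wnt10a (0.429). With 4 libraries such distances are a description only.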

How the data were processed

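RNA from 4 mouse mammary tumor cell lines was sequenced, with 1 library per line, and groups were taken from the sample titles. The authors deposited 1 table of RPKM values. The submitters' processing notes name CASAVA 1.8, GSNAP and GRCm38, and the gene model and counting rule are not given in the sources used here. The labels name a stranded kit, and the study's methods name a kit without that word. Whole reads were recovered from the RPKM values with a tolerance of 0.001 reads for 100% of the genes above 0, and the lengths fit coding sequence (58.8% of 10769 genes equal an annotated coding length). The scale of reads rests on these lengths, and the totals so found were 22472024 to 31235456 per library. Of the per-sample columns, 0 were left unmatched.

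Values were analysed as log2(RPKM + 1), which understates changes of low genes, for genes with mean RPKM of at least 1. The test was limma 3.58.1 (R 4.3.3) with an intensity trend, 2 knockouts against 2 controls, two-sided, with Benjamini-Hochberg adjustment over all tested genes and a threshold of 0.05. SE is the moderated standard error. Intervals are exact Poisson. Coding sequences came from GENCODE M21 and promoters from RefSeq. Other steps used Python 3.11.15, with scipy 1.17.1 for intervals and statsmodels 0.14.6 for the lowess curves of the GC and length correction.

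The members and gene lists were chosen with earlier results of these data known. All members are named. Other pathway genes are named where the groups did not overlap and the log2 change was at least 1 in size, where they are tested ligands or receptors of a member's class, or as up to 2 most abundant genes of a role, and for 3 members the 3 nearest genes. Some genes outside these rules are also named. Twsg1, Smurf2, Nbl1, Bmp2, Gdf7, Atoh8, Dlx3, Msx1 and Msx2 were picked after their values were seen. Bmpr1b, Smad9 and further low ligands are named as untested relatives of members. Alternatives were a pseudocount of 0.1, other scalings, filters and limma priors, voom on the recovered reads, a GC and length correction, and leaving out each library.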

Additional observations from a re-analysis of the deposited data

How the results depend on the processing

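No member passed an adjusted p of 0.05 as reported. Among alternatives that kept all libraries, only Bmpr2 (0.0299) and Smad5 (0.0396) did, both in limma with a robust prior. Of the 90 values under alternatives that can move a log2 change, 86 kept their sign and 4 did not. The sign changes were those of Bmp1, which ran from -0.53 to 0.31 when each library was left out, and of Bmp4, which ran from -0.31 to 1.78. Bmp3 ran from -0.32 to 1.41 likewise, and Acvr2a was at 0.0088 after quantile normalization and 0.30 after the GC and length correction. The number of all tested genes at an adjusted p under 0.05 in limma was 2, and it was 1 with a pseudocount of 0.1, 0 after median ratio scaling, 1 after quantile normalization, 0 without a filter, 32 with a filter of mean RPKM of at least 5, 285 with a robust prior, 0 after the GC and length correction and 0 with voom. Leaving out 1 library gave 3 to 788 genes, with 788 without the parental line and 451 without the vector control, the lone control being assumed to vary like the other libraries. The cause was not tested. Members at an unadjusted limma p under 0.05 numbered 5, of which 4 were lower and 1 higher, beside 13.8% and 5.32% of all tested genes. They numbered 4 or 5 under alternatives that kept all libraries, for which the share of all tested genes was not computed. These were not always the same genes. After the GC and length correction Bmpr1a (limma unadjusted p = 0.101) and Id1 (0.313) were no longer among them and Id2 (0.0371) was. Members whose groups did not overlap numbered 6, and 7 to 10 when 1 library was left out, which can only keep or raise this number and put 72% to 79.2% of all tested genes there. Quantile normalization moved the median log2 change of all tested genes from -0.08 to 0.04. The filter at 5 left out Bmp4 and Smad6, which then had no value. No paired analysis was possible because the labels give no replicate numbers and the numbers used follow accession order. With 2 libraries per group, and Bmp4 and Id2 at under 60 reads in some libraries, the data limit what can be said of those genes most.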

Other observations

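The levels of known targets of the pathway in the vector control were looked at after their values were seen. Of 10 tested targets, counting Id1 to Id3, Smad6 and Smad7, 5 were highest in that library (50%), against 36.6% of all tested genes, and 4 were lowest there (Dlx2, Runx2, Id1 and Smad6), against 18.1%. The targets as a group thus had no single direction there, and the 4 genes below were chosen after their values were seen. Atoh8, a helix-loop-helix factor, was at 0.264 RPKM in parental and 3.13 in vector control cells, against 0.572 for the exon 3 and 0.367 for the exon 2 edit. Dlx3, a homeobox gene, was at 0.185, 2.78, 1.18 and 1.03 RPKM in that order. The homeobox genes Msx1 and Msx2, both under the filter, were at 0.597 and 1.19 RPKM in parental cells, 1.51 and 2.30 with the vector, 0.467 and 0.265 with the exon 3 guide, and 0.146 and 0.221 with the exon 2 guide. The difference between the controls has 1 library on each side and no test.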
